A study of Homo sapiens with 6 samples.

Results

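Genes of cellular iron handling were followed in SH-SY5Y cells with a DNAJC12 knockout: HEPH, CP, SLC40A1, SLC11A2, STEAP3, FTH1, FTL, NCOA4, IREB2 and ACO1. They are 10 of the 20668 genes in the deposited table, and all 10 passed the filter on low counts that left 16403 genes for testing. HEPH was chosen by its fold change and counts in the comparison described here, and the other 9 were joined to it by their role in iron handling, with their values in these libraries already known. SH-SY5Y is a human neuroblastoma cell line with features of sympathetic neuron precursors. The comparison is between 3 libraries of untreated cells in which DNAJC12 was knocked out with CRISPR/Cas9 (DNAJC12-KO) and 3 libraries of untreated wild-type cells (WT). DNAJC12 encodes a J-domain partner of HSP70 chaperones, and the study's stated interest is the invasion of these cells. The labels do not say whether the knockout line is a clone or whether replicates were separate cultures, so each p-value reflects only how much the 6 libraries varied, and that variation may be technical.

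Cells take up iron from transferrin through the transferrin receptor, reduce it in endosomes with ferrireductases of the STEAP family and release it to the cytosol through the transporter DMT1. Excess iron is stored in ferritin, a shell of heavy (FTH1) and light (FTL) subunits, and is recovered when the receptor NCOA4 carries ferritin to lysosomes. Iron leaves cells through ferroportin (SLC40A1), with the multicopper ferroxidases hephaestin (HEPH) and ceruloplasmin (CP) oxidising the exported iron so that transferrin can bind it. Iron regulatory proteins 1 (ACO1) and 2 (IREB2) bind a hairpin called the iron-responsive element (IRE): in a 5′ UTR it lets them block translation, and in the 3′ UTR of TFRC it lets them protect the mRNA from decay.

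Hairpin matches are shown because the regulatory proteins bind hairpins of this kind. Transcripts of GENCODE release 29 on GRCh38 were searched for a C, 5 bases, a loop that begins CAGTG, 1 further base, and 5 bases that pair with the first 5, with G-T pairs allowed. Such a match was found in the UTRs of FTH1, FTL and SLC40A1, and at 4 places in the 3′ UTR of TFRC, the transferrin receptor gene, which is not one of the 10 genes. Capitals mark the unpaired C and the first 5 bases of the loop.
FTH1: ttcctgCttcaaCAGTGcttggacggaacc
FTL: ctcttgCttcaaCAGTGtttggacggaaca
SLC40A1: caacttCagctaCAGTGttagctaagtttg
TFRC 1: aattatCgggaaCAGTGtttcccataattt
TFRC 2: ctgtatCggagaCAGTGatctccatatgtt
TFRC 3: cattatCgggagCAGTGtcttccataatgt
TFRC 4: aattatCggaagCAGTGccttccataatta

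The FTH1 hairpin lies in the 5′ UTR at chr11:61967573-61967602 on the minus strand, in 10 of 12 transcripts. That of FTL lies in the 5′ UTR at chr19:48965335-48965364 on the plus strand, in its 1 transcript, and that of SLC40A1 in the 5′ UTR at chr2:189580660-189580689 on the minus strand, in 3 of 7 transcripts. The TFRC hairpins lie on the minus strand at chr3:196050462-196050491, chr3:196050509-196050538, chr3:196050574-196050603 and chr3:196050978-196051007. Matches of this form were present in 1192 of 206694 transcripts, or 0.577%. HEPH, CP, SLC11A2, STEAP3, NCOA4, IREB2 and ACO1 held no match of these letters. Some SLC11A2 transcripts are known to carry an IRE in the 3′ UTR, which this strict pattern did not find, so no match does not mean that an mRNA lacks the element. Transcripts with the FTH1 match carried 99.5% to 99.6% of the gene's TPM (the transcript files' level per length) in DNAJC12-KO and 99.6% to 99.8% in WT. For TFRC the share was 91.6% to 96.3% in DNAJC12-KO and 92.0% to 96.4% in WT, over the transcripts of release 29, which cover 85.0% to 93.2% of the gene's counts.

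Library totals ran from 19321842 to 21869659 counts. Levels below are CPM (counts scaled to library size with TMM factors) unless TPM is named, and 1 count was 0.0484 to 0.0511 CPM in the WT libraries. Fold changes are log2 values of DNAJC12-KO over WT ± SE by the edgeR quasi-likelihood test (3 libraries a group), and p-values were adjusted over all 16403 genes by the Benjamini-Hochberg method. DNAJC12 RNA was 5.91, 5.87 and 4.85 CPM in DNAJC12-KO, against 23.0, 21.4 and 20.04 CPM in WT, with no overlap and part of the RNA left. Markers counted as analysed are those whose symbol was found in the deposited table. Of the 11 sympathetic neuroblast markers, TH was not found. The other 10 exceeded 1 CPM in every library. Their summed level was 2986 to 3095 CPM in DNAJC12-KO and 3283 to 3372 CPM in WT. All 6 fibroblast markers also exceeded 1 CPM throughout, summing to 365 to 389 CPM in DNAJC12-KO and 450 to 488 CPM in WT. Markers of cells known for HEPH and CP were low: CDX1, the 1 of 6 enterocyte markers analysed, was at 0.140 to 0.458 CPM in DNAJC12-KO and 1.32 to 1.89 CPM in WT, and 2 of 6 hepatocyte markers summed to 0.153 to 0.420 CPM in DNAJC12-KO and 0.629 to 1.23 CPM in WT. The 4 of 6 macrophage markers analysed summed to 18.6 to 26.8 CPM in DNAJC12-KO and 10.4 to 15.6 CPM in WT, with PTPRC and ITGAM under 1 CPM in every library, and the 4 of 6 Schwann cell and oligodendrocyte markers to 6.44 to 7.32 CPM in DNAJC12-KO and 5.57 to 6.34 CPM in WT; the part of these shifts in the results was not tested. In bulk RNA, fewer cells of a type and less RNA per cell cannot be told apart.

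Among the 10 genes, HEPH was higher in DNAJC12-KO, the change for which it was chosen. Of the other 9, CP and NCOA4 were higher in DNAJC12-KO and STEAP3 and FTL were lower. SLC40A1, SLC11A2, FTH1, IREB2 and ACO1 did not pass the threshold of 0.05. Over all genes tested, 26.0% passed it, 14.5% higher and 11.5% lower in DNAJC12-KO. With library size alone in place of TMM scaling, 12.5% passed higher and 14.9% lower. The DNAJC12-KO and WT values did not overlap for 6 of the 10, against 41.7% of all genes. The median fold change of the 10 was 0.11. Because the list was built around a gene already known to rise, nothing is read from these counts.

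**Figure D1:**
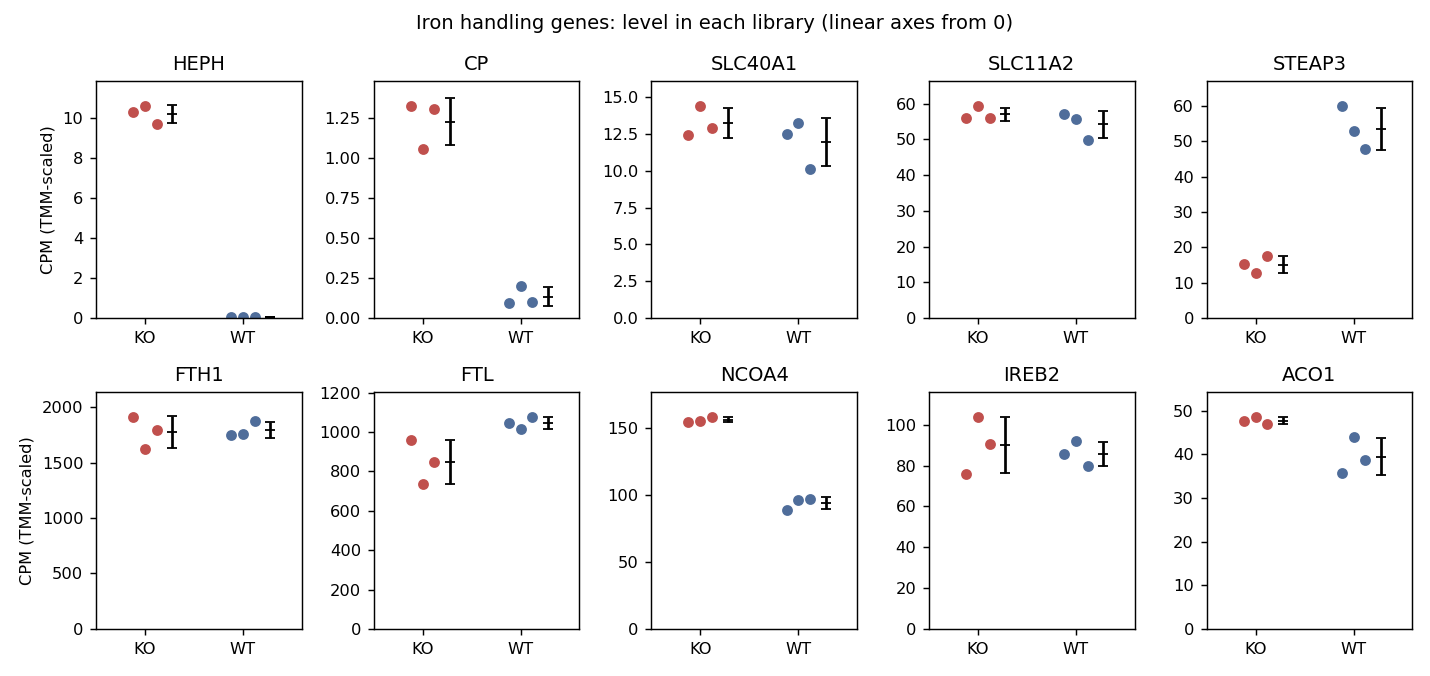
CPM (TMM-scaled, linear axes from 0) of each of the 10 genes in the 3 DNAJC12-KO libraries (red) and the 3 WT libraries (blue); the bars beside the points are mean ± SD. HEPH is near 0 in WT and near 10 CPM in DNAJC12-KO, STEAP3 shows the opposite separation, and FTH1 and IREB2 overlap.

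HEPH encodes hephaestin, a membrane-bound ferroxidase best known from the intestinal epithelium. HEPH (ENSG00000089472) lies at chrX:66162671-66268863 in GRCh38.p14. It had 203, 220 and 208 counts in the DNAJC12-KO libraries, against 1 count in each WT library. These were 10.3, 10.6 and 9.70 CPM in DNAJC12-KO (mean 10.2 ± 0.460, SD, n = 3) and 0.0484, 0.0508 and 0.0511 CPM in WT (mean 0.0501 ± 0.00147, SD, n = 3). The 3 DNAJC12-KO libraries lay close together and far above WT, where each library held a single read of the gene. The ratio of summed counts, scaled for depth, was 204 (exact 95% interval 69.4 to 991, for counting error only). This is the value for which the gene was chosen, so no p-value is given for it. The interval here and the SE in the figures describe spread and are no test of the change.

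The HEPH reads that could be assigned lay mostly on annotated coding transcripts. In the transcript files, ENST00000343002 held 168, 112 and 74.3 estimated reads in DNAJC12-KO replicates 1, 2 and 3. ENST00000458621 held 19.5, 0 and 93.7 reads and ENST00000441993 held 12.3, 0 and 13.7 reads in the same libraries. ENST00000343002 thus led in replicates 1 and 2, and ENST00000458621 in replicate 3. All HEPH transcripts of GENCODE release 29 were at 0 in WT, so that their summed DNAJC12-KO reads were at least 161-fold higher against a floor of 3 counts over the WT group. These transcripts covered 98.4%, 51.0% and 89.1% of the gene's counts in DNAJC12-KO replicates 1, 2 and 3. The other reads, and the 3 WT counts, were not on them. Which transcripts hold those was not examined.

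The sequence before the HEPH start is shown because the gene was nearly silent in WT and read in DNAJC12-KO. It is the RefSeq window of 250 bases on GRCh38.p14 at chrX:66163997-66164246 on the plus strand. The RefSeq start after this window is the one nearest the annotated start of ENST00000458621, which lies 23 bases away. That annotated model has 4 exons, against 20 for ENST00000343002 and 21 for ENST00000441993. Whether the model is the same version of ENST00000458621 as the one counted was not tested. Where the counted transcript starts is therefore uncertain. Capitals mark CG pairs.
HEPH promoter: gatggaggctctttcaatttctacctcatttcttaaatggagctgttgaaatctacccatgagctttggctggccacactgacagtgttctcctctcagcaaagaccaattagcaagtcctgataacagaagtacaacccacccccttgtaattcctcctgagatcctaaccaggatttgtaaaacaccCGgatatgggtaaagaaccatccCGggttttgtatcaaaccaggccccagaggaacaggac

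Each of the 3 RefSeq windows of HEPH held 2 CG pairs in 300 bases, where the median of 35116 promoters was 14 and 10.97% held fewer. The windows of STEAP3 and SLC40A1 held 36 and 47 CG pairs. Windows with few were not particular to HEPH: those of NCOA4 held 4 and 16, and those of SLC11A2 held 4, 5, 5 and 28. The letters TATAAA were in none of the HEPH windows on either strand, and in 11.5% of all promoters. The annotated start of ENST00000343002, the transcript that led in DNAJC12-KO replicates 1 and 2, lies 2157 bases from the nearest of these RefSeq starts. By that start, its own promoter is not the one printed.

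Within 1 Mb of HEPH lie 4 other tested genes, and 2 of them rose. ZC3H12B, a CCCH zinc finger gene, averaged 4.43 CPM in DNAJC12-KO and 1.85 CPM in WT, a change of 1.26 ± 0.24 (edgeR adjusted p = 0.00283); it was at 1.88 on summed and 2.63 on length-corrected transcript counts. MSN, which encodes the membrane-cytoskeleton linker moesin, averaged 374 CPM in DNAJC12-KO and 273 CPM in WT, a change of 0.46 ± 0.06 (edgeR adjusted p = 0.000154). EDA2R, a receptor of the TNF receptor family, changed by 0.39 ± 0.18 (edgeR adjusted p = 0.148), and by 0.55 without DNAJC12-KO replicate 2 (adjusted p = 0.0241). Farther along the chromosome, NALF2 rose by 5.33 ± 0.58 and DLG3 by 2.56 ± 0.29 (edgeR adjusted p = 5.91e-05 and 8.37e-05); these were named after their values were seen. Over the 532 tested genes of the X chromosome, 93 rose and 57 fell, with a median of 0.06. Over all 16403 genes tested, 2383 (14.5%) rose and 1887 (11.5%) fell. Nothing regional is read from the counts on the X chromosome or within 1 Mb of HEPH.

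**Figure D2:**
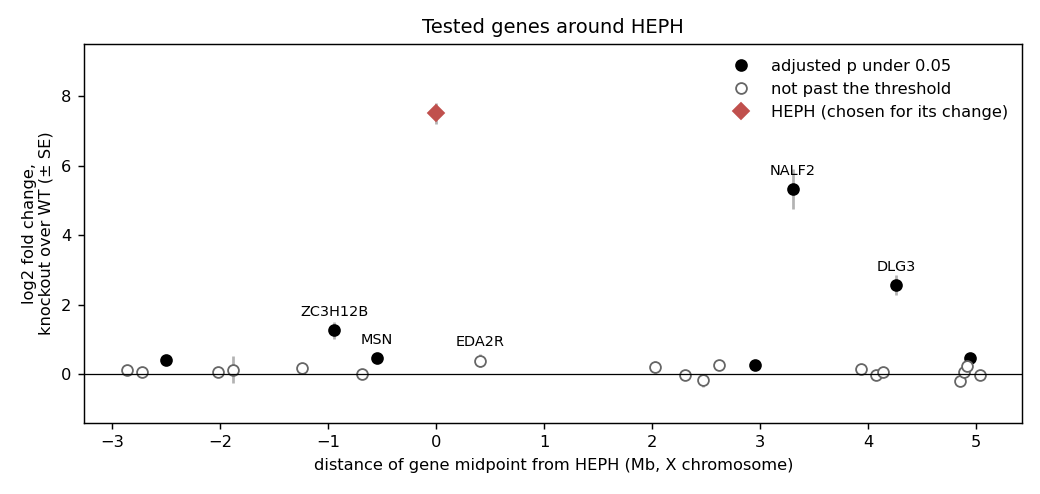
Log2 fold change (DNAJC12-KO over WT, ± SE) of the tested genes around HEPH against the distance of their midpoints in Mb. Filled circles passed the adjusted threshold, open circles did not, and the diamond is HEPH at 7.51, which was chosen for its change; of the genes within 1 Mb, ZC3H12B at 1.26 is the next highest.

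The genes whose profile over the 6 libraries was nearest that of HEPH were CPA4, MFAP5, ADAMTS2, CNTNAP5 and PTX3. Their centred log2 CPM differed from that of HEPH by a mean of 0.15, 0.23, 0.24, 0.30 and 0.33. The median of 14205 genes compared was 3.06. That median mostly restates the size of the step for which HEPH was chosen, so it is no yardstick of likeness. The 5 genes are those with a step between the genotypes most like that of HEPH. CPA4, a secreted carboxypeptidase, was at 155, 179 and 167 CPM in DNAJC12-KO and 1.79, 1.78 and 1.99 CPM in WT. MFAP5, a microfibril protein, was at 4.43, 4.96 and 5.78 CPM in DNAJC12-KO and had 0 counts in each WT library. The order of likeness depends on an added prior of 2 counts, since several of these genes are at or near 0 in WT.

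CP encodes ceruloplasmin, the ferroxidase that liver secretes into plasma and that astrocytes carry on their membrane. CP (ENSG00000047457, chr3:149162414-149221829) was at 1.32, 1.06 and 1.31 CPM in DNAJC12-KO, against 0.0968, 0.203 and 0.102 CPM in WT. Each DNAJC12-KO library exceeded each WT library, though the level stayed far under that of HEPH in the knockout. The mean was 1.23 ± 0.148 CPM in DNAJC12-KO and 0.134 ± 0.0598 CPM in WT (SD, n = 3 each), and the change was 3.14 ± 0.47 (edgeR adjusted p = 0.000603). It rests on 26, 22 and 28 counts in DNAJC12-KO and 2, 4 and 2 counts in WT, a ratio of 9.20 (exact 95% interval 4.44 to 22.1).

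The CP reads were divided among different transcripts in different libraries. The coding transcript ENST00000264613 held 0, 14.4 and 28 estimated reads in DNAJC12-KO replicates 1, 2 and 3 and 0 in every WT library. ENST00000494544 held 20.4, 7.60 and 0 reads in the same DNAJC12-KO libraries. In WT, 7 of the 8 reads were on transcripts annotated as retaining an intron. Such transcripts also held reads in DNAJC12-KO replicate 1. There ENST00000460674, ENST00000473296 and ENST00000463556 held 1.18, 2 and 2.42 reads, or 2.82%, 32.7% and 29.8% of the gene's TPM. CP overlaps HPS3 on the opposite strand, which had 625, 766 and 785 counts in DNAJC12-KO and 597, 660 and 603 counts in WT; the libraries were stranded, but the sources used here do not give the strand setting of the counting.

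SLC40A1 encodes ferroportin, the one known iron exporter of mammalian cells. SLC40A1 (ENSG00000138449, chr2:189560590-189580786) was at 12.4, 14.4 and 12.9 CPM in DNAJC12-KO, against 12.5, 13.2 and 10.1 CPM in WT. The groups overlapped. The change was 0.15 ± 0.13 (edgeR adjusted p = 0.473), so the exporter did not move detectably while both ferroxidase RNAs were higher.

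**Figure D3:**
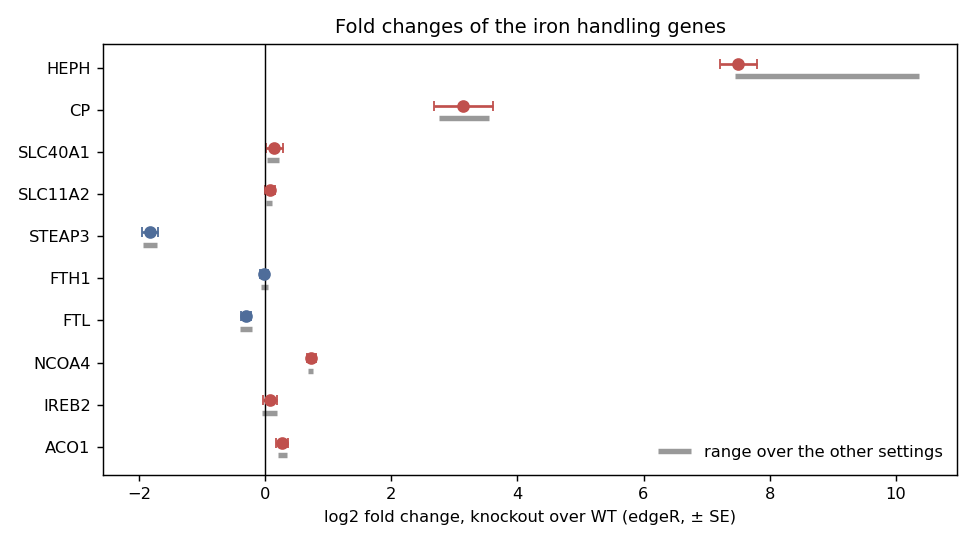
Log2 fold change of each gene (DNAJC12-KO over WT), with ± SE from edgeR as thin bars; the grey bar under each point is the range over the other processing settings. HEPH, CP and NCOA4 lie to the right of 0 and STEAP3 and FTL to the left under all settings. SLC40A1, SLC11A2 and ACO1, which did not pass in the main comparison, also stay to the right, and FTH1 and IREB2 cross 0. For HEPH, whose WT transcripts are at 0, the fitted value depends on the source of the counts and is no bound.

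On the uptake side, STEAP3 was lower and the DMT1 gene was not detectably changed. SLC11A2 encodes DMT1, which moves ferrous iron across endosomal and plasma membranes. SLC11A2 (ENSG00000110911, chr12:50952263-51028886) was at 55.9, 59.2 and 55.9 CPM in DNAJC12-KO, against 57.0, 55.7 and 50.0 CPM in WT. The groups overlapped, and the change was 0.07 ± 0.08 (edgeR adjusted p = 0.567).

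STEAP3 encodes an endosomal ferrireductase that reduces iron released from transferrin. STEAP3 (ENSG00000115107, chr2:119223834-119265652) was at 15.2, 12.8 and 17.4 CPM in DNAJC12-KO, against 59.8, 52.7 and 47.9 CPM in WT. Every DNAJC12-KO library was far below every WT library. The mean was 15.1 ± 2.34 CPM in DNAJC12-KO and 53.5 ± 5.98 CPM in WT (SD, n = 3 each). STEAP3 fell by 1.82 ± 0.13 on the log2 scale (edgeR adjusted p = 2.58e-06), and its value over 14 other settings ran from -1.94 to -1.71. Its antisense gene STEAP3-AS1 had 5, 2 and 1 counts in DNAJC12-KO and 10, 2 and 3 counts in WT.

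TFRC encodes the transferrin receptor, whose 3′ UTR holds the 4 hairpin matches printed above. TFRC (chr3:196049284-196082090) was at 117, 190 and 149 CPM in DNAJC12-KO, against 155, 171 and 174 CPM in WT. DNAJC12-KO replicate 2 was the highest of all 6 libraries and replicate 1 the lowest, so the groups overlapped. The change was -0.13 ± 0.14 (edgeR adjusted p = 0.559); it was -0.32 without DNAJC12-KO replicate 2 (adjusted p = 0.0322) and 0.03 without DNAJC12-KO replicate 1 (adjusted p = 0.882). Within 1 Mb of TFRC, 15 of 26 tested genes fell and 0 rose, with a median of -0.45. The shares over all genes tested were 11.5% lower and 14.5% higher. What these neighbours mean for TFRC was not tested.

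In storage, FTH1 overlapped between the genotypes and FTL was lower in DNAJC12-KO. FTH1 (ENSG00000167996, chr11:61964285-61967634) encodes the heavy subunit, which carries the ferroxidase centre. It was at 1911, 1623 and 1797 CPM in DNAJC12-KO, against 1751, 1761 and 1875 CPM in WT. The highest and the lowest values were both in DNAJC12-KO, and the change was -0.02 ± 0.07 (edgeR adjusted p = 0.901).

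FTL (ENSG00000087086, chr19:48965309-48966879) encodes the light subunit, which favours mineral formation in the ferritin core. It was at 960, 737 and 847 CPM in DNAJC12-KO, against 1047, 1014 and 1076 CPM in WT. Each DNAJC12-KO library was below each WT library, and the DNAJC12-KO libraries were the more spread. The mean was 848 ± 112 CPM in DNAJC12-KO and 1046 ± 31.0 CPM in WT (SD, n = 3 each). FTL fell by 0.30 ± 0.09 on the log2 scale (edgeR adjusted p = 0.0248). The call was lost without DNAJC12-KO replicate 3 (adjusted p = 0.0833) or WT replicate 1, 2 or 3 (0.0678, 0.0531 and 0.0816), and over all settings its adjusted p ran from 0.0011 to 0.0833. Within 1 Mb of FTL, 18 of 70 tested genes fell and 3 rose, with a median of -0.15. Over all genes tested, 11.5% fell and 14.5% rose. Nothing regional is read from the counts around FTL, and their bearing on its fall was not tested.

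Per length, the heavy subunit was the more abundant ferritin RNA in every library. The ratio of FTH1 to FTL TPM was 2.21, 2.53 and 2.38 in DNAJC12-KO, against 1.84, 1.91 and 1.97 in WT. All DNAJC12-KO ratios exceeded all WT ratios. The mean was 2.37 ± 0.161 in DNAJC12-KO and 1.91 ± 0.0608 in WT (SD, n = 3 each), a 1.24-fold difference (two-sided exact permutation p = 0.1, the smallest that 3 against 3 libraries can give). Together the 2 subunits made up 0.558%, 0.482% and 0.532% of all TPM in DNAJC12-KO and 0.583%, 0.584% and 0.610% in WT.

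Ferritin has many processed pseudogenes, to which reads of the parent genes can be assigned. Of 41 annotated pseudogenes, 25 of FTH1 and 16 of FTL, 15 held any estimated reads. Their sum was 8.03 to 28.3 reads a library, at most 0.0499% of the ferritin reads. FTH1P7, FTH1P23 and FTH1P2 held the most, 16.2, 16.0 and 11.6 reads over all 6 libraries. FTH1 also overlaps BEST1 on the opposite strand, which had 127, 118 and 127 counts in DNAJC12-KO and 74, 71 and 88 counts in WT.

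**Figure D4:**
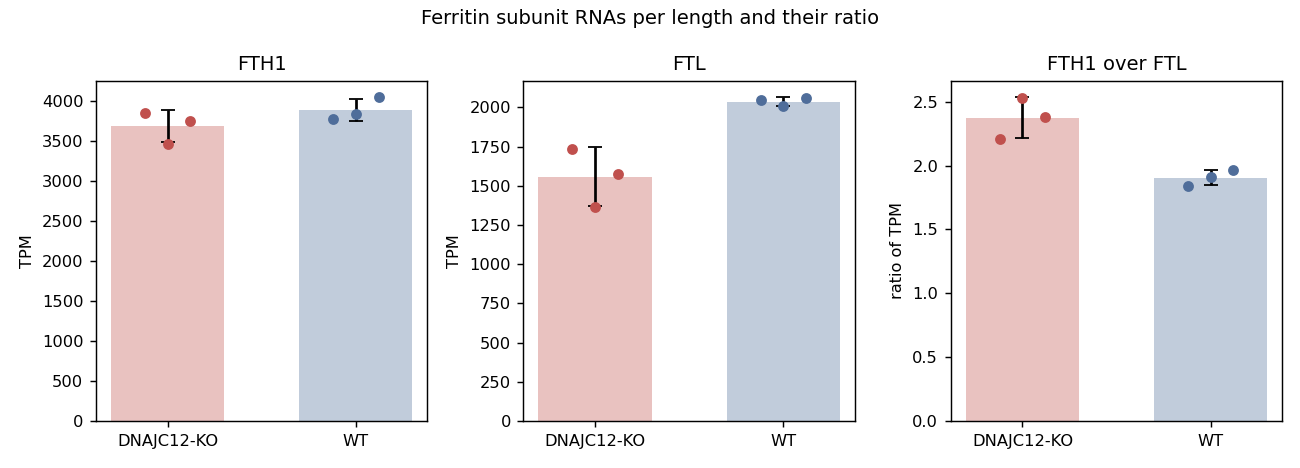
TPM of FTH1 and FTL and their ratio in the 3 DNAJC12-KO and 3 WT libraries (points), with means as columns and SD as error bars, on axes from 0. FTL is lower in each DNAJC12-KO library, and the ratio is 2.37 in DNAJC12-KO and 1.91 in WT.

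NCOA4, the cargo receptor that delivers ferritin to lysosomes, was higher in DNAJC12-KO. NCOA4 (ENSG00000266412, chr10:46005088-46030623) was at 155, 155 and 158 CPM in DNAJC12-KO, against 88.4, 96.2 and 96.7 CPM in WT. The genotypes were well apart and each was tight. The mean was 156 ± 1.81 CPM in DNAJC12-KO and 93.8 ± 4.65 CPM in WT (SD, n = 3 each), a rise of 0.73 ± 0.07 (edgeR adjusted p = 1.45e-05). Over the 14 other settings the value ran from 0.68 to 0.75. Of 16 tested genes within 1 Mb of NCOA4, 1 rose and 0 fell, against 14.5% and 11.5% of all genes tested. Nothing regional is read from this count.

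The RNAs of the 2 iron regulatory proteins did not pass the threshold. IREB2 (ENSG00000136381, chr15:78437431-78501453), whose protein is degraded when iron is plentiful, was at 75.9, 104 and 90.6 CPM in DNAJC12-KO, against 85.5, 91.9 and 79.8 CPM in WT. The groups overlapped, with the widest spread in DNAJC12-KO, and the change was 0.07 ± 0.11 (edgeR adjusted p = 0.691). ACO1 (ENSG00000122729, chr9:32384643-32454769) encodes cytosolic aconitase, which becomes iron regulatory protein 1 when it loses its iron-sulfur cluster. It was at 47.6, 48.5 and 46.9 CPM in DNAJC12-KO, against 35.7, 44.0 and 38.8 CPM in WT. The groups did not overlap, yet the change of 0.27 ± 0.09 missed the threshold (edgeR adjusted p = 0.0537). It passed with DESeq2 (0.0422), a filter of 1 CPM (0.0473) and without WT replicate 2 (0.0375), and its adjusted p over all settings ran from 0.0375 to 0.206.

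Per length, the order of RNA levels in WT was FTH1 at 3885 TPM, FTL at 2038 TPM, NCOA4 at 38.5 TPM, SLC11A2 at 25.0 TPM, IREB2 at 22.0 TPM, STEAP3 at 19.3 TPM, ACO1 at 13.9 TPM, SLC40A1 at 5.61 TPM and CP at 0.117 TPM, with HEPH listed at 0. The ranges over libraries of SLC11A2, IREB2 and STEAP3 all overlapped one another. In DNAJC12-KO, STEAP3 stood at 5.51 ± 0.594 TPM, within the range of SLC40A1 at 5.89 ± 0.595 TPM (SD, n = 3). HEPH averaged 2.39 ± 0.727 TPM in DNAJC12-KO, above CP at 0.746 ± 0.606 TPM and below SLC40A1. Ferritin RNA thus stood far above the other members in both genotypes.

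Within genes, no shift between transcripts passed the threshold. Shares of a gene's TPM were compared for 20 transcripts, and 0 passed by the exact permutation test, which could not go below p = 0.1 (0 at an unadjusted p under 0.05). The STEAP3 transcript ENST00000393110 held 22.4 ± 4.72% of the gene's TPM in DNAJC12-KO and 40.4 ± 10.4% in WT, without overlap (SD, n = 3 each; exact permutation p = 0.1, adjusted 0.706). The main NCOA4 transcript, ENST00000581486, held 79.3 ± 1.19% in DNAJC12-KO and 84.7 ± 5.42% in WT.

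Other genes of iron, heme and copper handling, and of defence against lipid peroxidation, were described in 8 lists. Of their 121 genes, 104 were tested, and 8 rose, 17 fell and 79 did not pass, so that 24.0% passed against 26.0% of all genes. By list the share past the threshold was 45.5% for iron uptake, 12.5% for iron chaperones and ferritin turnover, 33.3% for the hepcidin axis, 3.33% for mitochondrial iron, 26.3% for heme, 35.7% for copper, 33.3% for lipid peroxidation and 40.0% for other IRE mRNAs, with as few as 3 genes tested in a list. The median fold change of the 104 was -0.08, against 0.00 over all genes. The number of genes past the threshold was 14 without DNAJC12-KO replicate 3, 17 without WT replicate 1 or 3, and 11 on length-corrected transcript counts.

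In iron uptake, 4 of 11 tested genes fell and 1 rose, and the median over the 11 was -0.25. SNX3, a sorting nexin that recycles the transferrin receptor, averaged 125 ± 3.31 CPM in DNAJC12-KO and 165 ± 5.58 CPM in WT (-0.40 ± 0.06, edgeR adjusted p = 0.000805). CYBRD1, a ferrireductase of the duodenal surface, averaged 18.5 ± 2.47 CPM in DNAJC12-KO and 28.9 ± 2.26 CPM in WT (-0.65 ± 0.12, edgeR adjusted p = 0.00213). The metal transporters SLC39A8 and SLC39A14 fell by 0.73 ± 0.14 and 0.32 ± 0.08 on the log2 scale (edgeR adjusted p = 0.00264 and 0.0152). TFR2, a receptor that senses transferrin, rose by 0.67 ± 0.22 (edgeR adjusted p = 0.0484) and is named because it was the single rise of the list. SLC39A8 changed by -0.30 on summed and -0.23 on length-corrected transcript counts (adjusted p = 0.455 and 0.613), and CYBRD1 was lost on length-corrected ones (0.0547). SLC39A14 was lost without DNAJC12-KO replicate 3 or WT replicate 2 or 3 (0.0891, 0.0757 and 0.0522), and TFR2 without DNAJC12-KO replicate 2 or 3 or any WT library (0.0674 to 0.143) and in 6 of 8 other settings (0.0513 to 0.289).

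Of the genes that deliver iron to proteins or turn over ferritin, 1 of 8 tested rose and 0 fell, with a median of 0.06; the hepcidin axis had 1 rise among 3 tested and a median of 0.10. PCBP3, of the family of iron-binding chaperones, averaged 75.2 ± 8.46 CPM in DNAJC12-KO and 50.5 ± 5.26 CPM in WT (0.57 ± 0.10, edgeR adjusted p = 0.00212; 0.055 on summed and 0.0807 on length-corrected transcript counts). The others named were TAX1BP1, an autophagy receptor of ferritin turnover, at 0.26 (edgeR adjusted p = 0.0881), BOLA2, which has a near-identical copy and is uncertain, at -0.25 (edgeR adjusted p = 0.203), and FBXL5, which degrades iron regulatory protein 2, at 0.15 (edgeR adjusted p = 0.300). TAX1BP1 passed without DNAJC12-KO replicate 1 (0.0136). In the hepcidin axis NEO1, a co-receptor of hemojuvelin, averaged 140 ± 2.08 CPM in DNAJC12-KO and 109 ± 4.39 CPM in WT (0.36 ± 0.06, edgeR adjusted p = 0.00178). APP was at 0.10 (edgeR adjusted p = 0.240) and ERFE, the erythroid hormone erythroferrone, at 0.02 (edgeR adjusted p = 0.962).

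Mitochondrial iron and iron-sulfur cluster genes were measured throughout, and 1 of 30 passed. FDX2, the ferredoxin of cluster assembly, averaged 17.6 ± 2.12 CPM in DNAJC12-KO and 26.0 ± 1.16 CPM in WT (-0.56 ± 0.11, edgeR adjusted p = 0.0034). The median was -0.12, with 24 values below 0 and 6 above. CIAO3, NFS1 and BOLA3, which act in cluster assembly, were at -0.27, -0.23 and -0.32 (adjusted p = 0.0527, 0.0864 and 0.0878). Without DNAJC12-KO replicate 1, CIAO3 and NFS1 passed (0.0412 and 0.0386); with library size alone CIAO3, NFS1 and BOLA3 passed (0.0244, 0.0409 and 0.0448), and with DESeq2 size factors CIAO3 (0.0498).

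In heme metabolism, 5 of 19 tested genes fell and 0 rose, with a median of -0.08; the share of 26.3% is near the 26.0% of all genes. ABCB6, a porphyrin transporter, averaged 29.2 ± 0.139 CPM in DNAJC12-KO and 48.0 ± 2.76 CPM in WT (-0.72 ± 0.08, edgeR adjusted p = 9.1e-05). FECH, which inserts iron into protoporphyrin, averaged 56.9 ± 0.743 CPM in DNAJC12-KO and 71.3 ± 1.05 CPM in WT (-0.33 ± 0.07, edgeR adjusted p = 0.0049). The synthesis enzyme gene CPOX fell by 0.32 ± 0.10 on the log2 scale (edgeR adjusted p = 0.032), and the biliverdin reductase gene BLVRB by 0.43 ± 0.13 (0.0383). FECH lost its call in 2 other settings, at -0.92 on summed transcript counts (adjusted p = 0.294) and at -0.48 in the second. With length-corrected transcript counts ABCB6 was at -0.41 and lost its call (0.0515). CPOX was lost without any library but DNAJC12-KO replicate 2 (0.0516 to 0.123) and BLVRB without any but DNAJC12-KO replicate 1 (0.0626 to 0.113). On length-corrected transcript counts both were lost (0.137 and 0.0912), and BLVRB also on summed ones (0.063).

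Copper handling was included because hephaestin and ceruloplasmin need copper. Of 14 tested genes 2 rose and 3 fell; the median over the 14 was 0.07. SLC31A1, the high-affinity copper importer, averaged 63.7 ± 5.23 CPM in DNAJC12-KO and 103 ± 11.2 CPM in WT (-0.69 ± 0.10, edgeR adjusted p = 0.000343). ATP7A, the pump that loads copper onto secreted enzymes, averaged 79.9 ± 9.23 CPM in DNAJC12-KO and 57.2 ± 6.79 CPM in WT (0.48 ± 0.11, edgeR adjusted p = 0.00757; 0.0969 on summed and 0.0869 on length-corrected transcript counts). The metallothionein gene MT2A rose by 0.50 ± 0.14, and SLC31A2 and COX17 fell by 0.62 ± 0.18 and 0.40 ± 0.12 on the log2 scale (edgeR adjusted p = 0.0215, 0.0269 and 0.0309). All 3 were lost without DNAJC12-KO replicate 3, WT replicate 1 or WT replicate 3 (0.0667 to 0.150), and SLC31A2 also without DNAJC12-KO replicate 2 (0.0626). On length-corrected transcript counts MT2A, SLC31A2 and COX17 were lost as well (0.0802, 0.0908 and 0.0671).

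Among 15 tested genes of lipid peroxidation and glutathione, 2 rose and 3 fell; the median over the 15 was -0.05. SLC7A11, the cystine importer, averaged 2.64 ± 0.879 CPM in DNAJC12-KO and 8.10 ± 1.81 CPM in WT (-1.61 ± 0.27, edgeR adjusted p = 0.00124). AIFM2, which regenerates coenzyme Q at membranes, averaged 13.4 ± 0.973 CPM in DNAJC12-KO and 23.3 ± 0.449 CPM in WT (-0.80 ± 0.10, edgeR adjusted p = 0.000178). LPCAT3, a lysophospholipid acyltransferase, fell by 0.62 ± 0.10 on the log2 scale, and SAT1, a polyamine acetyltransferase, rose by 0.87 ± 0.13 (edgeR adjusted p = 0.00133 and 0.000589). NFE2L2, a transcription factor of the antioxidant response, rose by 0.25 ± 0.08 (edgeR adjusted p = 0.0443), a call lost without any library but DNAJC12-KO replicate 1 (0.0615 to 0.163) and in 4 of 8 other settings (0.0629 to 0.189). The list's name covers opposed roles: SLC7A11 and AIFM2 protect lipids, while LPCAT3 builds the lipids that oxidise.

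Of the other mRNAs known to carry the hairpin, 1 of 5 rose and 1 fell. EPAS1, which encodes the hypoxia factor HIF-2 alpha, averaged 73.8 ± 2.58 CPM in DNAJC12-KO and 58.1 ± 9.01 CPM in WT (0.34 ± 0.11, edgeR adjusted p = 0.0366). CDC42BPA, a kinase, was at 0.26 (edgeR adjusted p = 0.0950; 0.0142 without DNAJC12-KO replicate 1). EPAS1 was lost without DNAJC12-KO replicate 2 or 3 or WT replicate 2 or 3 (0.0602 to 0.117) and in 3 of 8 other settings, library size alone (0.0775) and both kinds of transcript counts (0.0549 and 0.288); it was at 0.23 without WT replicate 3.

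**Figure D5:**
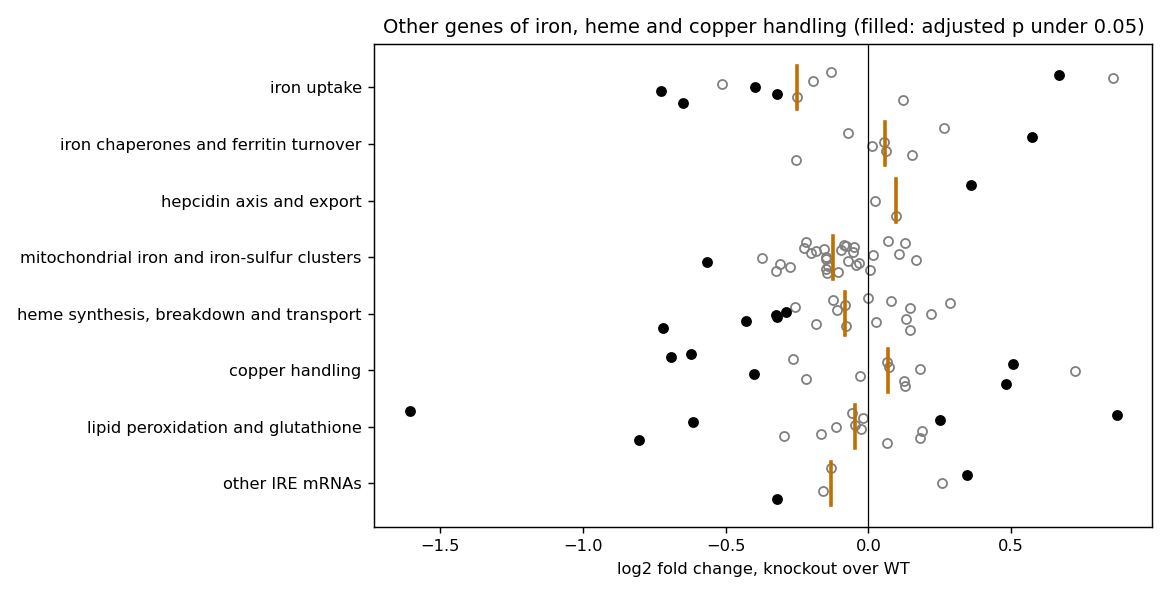
Log2 fold change (DNAJC12-KO over WT) of each tested gene of the 8 lists; filled points passed the adjusted threshold, open points did not, and orange lines are list medians. Filled points make up 24.0% of the genes, against 26.0% of all genes tested, and lie on both sides of 0.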

How the data were processed

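RNA-seq was measured in 3 DNAJC12-KO and 3 WT libraries. Per the labels' protocols, total RNA was depleted of ribosomal RNA and made into stranded libraries. Per the submitters' processing notes, cutadapt 3.5, FastQC 0.119, Salmon 1.10.0, DESeq2 1.42.1 and GRCh38.p14 (hg38) were used, with no role given. The annotation release and strand setting are not given in the sources used here. The authors deposited a gene table of counts, which match, to within 1 read, the estimated counts of their transcripts added up for 82.8% to 83.7% of 19584 genes. Per the file headers, the transcript files hold estimated counts, TPM and effective lengths for 251955 transcripts, of which 201667, with 94.2% to 94.6% of the reads, could be assigned through GENCODE release 29. Repeated rows (403 of 21071) were removed.

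DNAJC12-KO was tested against WT with edgeR 4.0.16 (R 4.3.3): filterByExpr, TMM, quasi-likelihood F-test, two-sided, Benjamini-Hochberg adjustment over 16403 genes, threshold 0.05. SE is the size of the log2 fold change divided by the root of F. TPM ratios and shares were tested by exact permutation. Replicates of a genotype differed by more than counting noise (chi-square per gene 4.37 to 22.7), so none was merged. Intervals and the 3-count floor cover counting error only. Positions and promoters are from RefSeq (GRCh38.p14). Positions were matched for all 10 genes, and promoter windows for all of them but CP and FTH1.

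The 10 genes and all lists were chosen with earlier results of these data known. Named genes are the 10, TFRC, the 4 genes of each list with the smallest adjusted p, the 5 with profiles most like HEPH, and the 3 ferritin pseudogenes with most reads; other genes past the threshold in the lists, and genes around HEPH, were added after their values were seen. A few genes this rule names are not reported here, but the counts per list include them. Alternatives were DESeq2 1.42.0, its size factors, library size alone, other filters, a replicate block, each library left out, and counts from the transcript files. Of the 121 list genes, 15 were not found by symbol in the deposited table, and BMP6 and FLVCR2 had too few counts to test.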

Additional observations from a re-analysis of the deposited data

How the results depend on the processing

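The main comparison called 4270 genes, and 2850 to 4772 under the other settings. Of the 9 iron handling genes other than HEPH, which was chosen by this comparison, 4 were called, and 3 to 5 elsewhere, where FTL was lost or ACO1 gained. The 25 called list genes became 11 on length-corrected transcript counts, and 14 to 32 with one library left out. The FTH1 to FTL log2 ratio difference of 0.32 ran from 0.27 to 0.37. Transcript shares and this ratio could not pass under any setting, so they say nothing of stability. Signs changed in 4 genes that did not pass. With one library left out, FTH1 ran from -0.0698 to 0.0453, IREB2 from -0.0422 to 0.181, TFRC from -0.322 to 0.0256 and ERFE from -0.0958 to 0.197. ERFE was also at -0.0302 with library size alone and -0.225 on length-corrected counts. The cause of these changes was not tested; the length-corrected counts cover fewer transcripts, and leaving out a library leaves 5 in the fit.

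Same-numbered libraries did not deviate together (correlations 0.0591, -0.0297 and -0.0652), so the numbers do not pair them. With the replicate number as a block, 4565 genes, 5 of these 9 (ACO1 at an edgeR adjusted p of 0.0393) and 26 list genes passed, and not every library correlated best with its own number. The ratio gave a paired exact permutation p of 0.25, the smallest that 3 pairs allow. Depth limits HEPH and CP, where WT held 3 and 8 counts.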
